A study of Mus musculus with 6 samples.

Results

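The promoters of Myh6, Myh7 and Myh7b, 3 myosin heavy chain genes of the heart, were examined for CpG methylation in cultured mouse embryonic cardiomyocytes after knockdown of the DNA methyltransferase DNMT1. Each gene was covered by 2 promoter regions, numbered as in the deposited tables, and these 6 regions are part of 30 regions from 15 target genes. They list 28 CpG sites, of which 27 had at least 10 calls in every sample and were kept, out of 314 such sites in 26 regions of the whole series. The 28th, at location 299 of Myh7 region 2, had at most 3 calls in any sample, whereas the least covered of the kept sites had 477.

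All cultures were ventricular cardiomyocytes of CD-1 mice, an outbred strain, taken on embryonic day 13.5, with the ventricles of a litter pooled. Cells of 3 cultures received 12 nM negative siRNA and cells of 3 cultures received 12 nM DNMT1 siRNA, a pool of several siRNAs against the mRNA of this enzyme. After 72 h the cells were sorted magnetically with an antibody to VCAM1 before DNA was extracted, so the sorted cells and not the whole cultures were measured. The files hold cytosine calls and no RNA, so neither the labelled cell type nor the depth of the knockdown could be checked in them. In total the samples differed little in depth, from 26793215 to 32253280 cytosine calls per sample, and the median number of calls over the 314 CpG sites was 6739 to 8710. Single regions could differ more, as given below for Myh6 region 2. Nothing in the labels says whether the 3 replicates of a group came from separate litters. The p-values of tests that use the spread between replicates therefore measure only the spread between these samples. Those of the logistic regression, which works on pooled calls, cover counting error only. The 3 negative siRNA titles carry a 2 in brackets and the DNMT1 siRNA titles do not, and what this mark stands for, which is not given, cannot be told apart from the siRNA. A methylation level is the percent of calls read as C, averaged over the DNA of all sorted cells. A change in the mixture of cells and a change within cells cannot be told apart.

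Myosin heavy chains are the motor proteins of the thick filament, which pull on actin to shorten the sarcomere. Myh6 encodes the fast alpha isoform, which prevails in the adult mouse ventricle, and Myh7 the slower beta isoform, which prevails in the fetal ventricle. The genes lie in tandem on chromosome 14, and the antisense transcript Mhrt starts between them. Myh7b, on chromosome 2, encodes a related heavy chain of striated muscle and is the host gene of a muscle microRNA. DNMT1 copies the methylation of the old DNA strand onto the new strand after replication, and methylation of CpG-poor promoters often differs between tissues that use a gene and tissues that do not.

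Stretches of 5 regions that carry most of the measured CpG sites are printed below in the direction of transcription, from GRCm38.p6. Each CpG is in capitals, to show how these sites are spaced. Exon sequence downstream of the start is left out. Positions given later as negative numbers are base pairs upstream of the annotated transcription start of the longest transcript in GENCODE vM21.
Myh6 region 1, chr14:54966642-54966868, minus strand: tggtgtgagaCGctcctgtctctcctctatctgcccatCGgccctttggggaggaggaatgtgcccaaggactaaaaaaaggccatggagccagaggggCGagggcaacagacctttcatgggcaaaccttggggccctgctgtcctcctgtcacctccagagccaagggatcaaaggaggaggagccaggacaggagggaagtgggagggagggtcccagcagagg
Myh7 region 1, chr14:54995450-54995712, minus strand: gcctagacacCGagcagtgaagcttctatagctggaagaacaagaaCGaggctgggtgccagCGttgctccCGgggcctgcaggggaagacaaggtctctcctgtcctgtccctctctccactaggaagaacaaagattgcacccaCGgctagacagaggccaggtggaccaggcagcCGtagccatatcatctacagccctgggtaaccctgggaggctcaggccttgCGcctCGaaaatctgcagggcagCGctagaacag
Myh7 region 2, chr14:54994658-54994875, minus strand: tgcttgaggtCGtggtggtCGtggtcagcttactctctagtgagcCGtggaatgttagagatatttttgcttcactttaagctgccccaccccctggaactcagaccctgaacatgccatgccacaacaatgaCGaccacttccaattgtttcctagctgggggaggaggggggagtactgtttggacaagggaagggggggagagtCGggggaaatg
Myh7b region 1, chr2:155611156-155611211, plus strand: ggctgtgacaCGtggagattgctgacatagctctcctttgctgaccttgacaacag
Myh7b region 2, chr2:155610812-155611062, plus strand: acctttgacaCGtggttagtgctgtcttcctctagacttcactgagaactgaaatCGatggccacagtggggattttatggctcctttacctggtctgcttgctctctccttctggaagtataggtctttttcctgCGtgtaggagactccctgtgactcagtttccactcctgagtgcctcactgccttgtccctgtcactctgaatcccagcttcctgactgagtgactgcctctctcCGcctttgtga

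The regions differ in their distance from the start of the gene. For Myh6 the listed cytosines of region 1 span -254 to 161, across the start, and those of region 2 span -987 to -626. For Myh7 the order is the other way round, with region 1 at -1140 to -710 and region 2 at -336 to 8. For Myh7b, region 1 spans -121 to 255 and region 2 spans -510 to -74, so the spans overlap but share no CpG. The density of CpG over the whole spans differed between the 6 regions. Myh7 region 1 has the highest density, with 2.09 CpG per 100 bp of its span, and Myh7b region 1 the lowest, with 0.796. The printed stretch of Myh7 region 1 is denser than its span, with 3.42 CpG per 100 bp. Over 32851 RefSeq promoter windows the median was 7 CpG and the quartiles were 3 and 20, counted per 300 bp and not per 100 bp.

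Motifs were searched on both strands of the printed stretches. CATTCC, the MCAT element bound by TEAD factors, occurred 1 time in Myh6 region 1 and 1 time in Myh7 region 2, and 11.1% and 10.6% of all RefSeq promoter windows cut to those lengths hold it. In Myh7 region 2 it stood 1 base from the CpG at -204, and in Myh6 region 1 it stood 15 bases from the nearest CpG. The E-box CANNTG, a motif of basic helix-loop-helix factors, was found in 4 of the 5 stretches, all but Myh6 region 1. It is a common motif, held by 21.2% to 67.8% of promoter windows cut to the lengths of the 5 stretches. In both Myh7b stretches it took the form CACGTG, which contains the CpG itself. This form was looked for after the matches were seen, and 1.34% and 6.42% of promoter windows of these lengths hold it. Of the motifs bound by factors of the GATA family only the form AGATAA was searched. It matched none of the 5 stretches, and the same held for the GC box CCGCCC. They are held by 1.43% to 9.58% and by 9.58% to 34.6% of promoter windows of the same lengths, respectively.

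With DNMT1 siRNA methylation fell by 3.38 to 22.0 percentage points in 5 of the 6 regions, and in those 5 regions every DNMT1 siRNA replicate lay below every negative siRNA replicate. In the remaining region, Myh7b region 1, the replicates overlapped. Across all 26 regions, 76.9% had such separated replicates in this direction, and limma, a linear model that shares the spread between features, likewise called 76.9% of the regions lower. The 5 myosin regions of 6 are therefore close to the share over all targets. With 3 replicates a group the exact permutation test cannot give a p below 0.1.

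**Figure D1:**
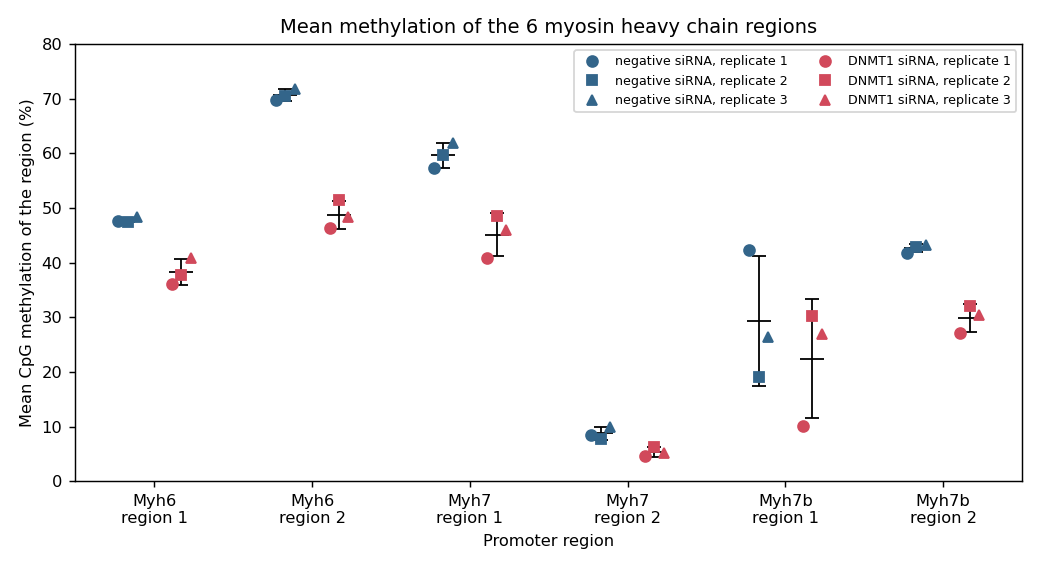
Mean CpG methylation (percent) of each myosin heavy chain region in every sample, blue for negative siRNA and red for DNMT1 siRNA, with the mean and SD of the 3 replicates in black. The groups are apart in 5 regions and overlap in Myh7b region 1, where the negative siRNA replicates run from 19.1% to 42.4%.

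Myh6 region 2, the distal Myh6 region, had the highest level of the 6 and, in percentage points, the largest fall of all 26 regions. With negative siRNA the mean over its 3 sites was 69.7%, 70.6% and 71.8%, and with DNMT1 siRNA it was 46.3%, 51.4% and 48.3%. The groups stood apart by more than their spread. The mean fell by 22.0 points, from 70.7% ± 1.05 to 48.7% ± 2.58 (SD, n = 3 each; two-sided exact permutation p = 0.1, the smallest possible; limma adjusted p = 0.000297 over 26 regions). On the log2 scale of methylated over unmethylated level that limma used, the change was -1.35 with a 95% interval of -1.64 to -1.06, the third largest of the 26.

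Its 3 sites fell by similar amounts in points. Shares of the negative siRNA level that were left were 71.4% at -920, 59.2% at -818 and 73.4% at -786. The CpG at -818 had the largest difference, from 56.0%, 57.2% and 60.0% to 33.7%, 35.4% and 33.4%. Its pooled level, over all calls of a group, fell by 23.1 points. Depth was uneven here, with 51746, 57651 and 44986 calls for negative siRNA and 25055, 50231 and 22028 for DNMT1 siRNA. The part of depth in the fall was not tested. At -786 the levels went from 80.3%, 81.9% and 81.7% to 57.2%, 64.4% and 57.3%, and at -920 from 73.0%, 72.5% and 73.8% to 47.9%, 54.4% and 54.3%. The pooled level fell by 20.4 points at both, with -786 the smaller by a margin lost in rounding. All 3 sites passed the logistic regression, the quasi-binomial F test and limma, with limma adjusted p-values of 0.0043 to 0.00637 over the 314 sites.

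Myh6 region 1, around the start of the gene, changed less. Its mean was 47.6%, 47.5% and 48.3% with negative siRNA and 36.1%, 37.8% and 40.8% with DNMT1 siRNA. The groups did not overlap, and the mean fell by 9.55 points, from 47.8% ± 0.41 to 38.2% ± 2.39 (SD, n = 3 each; two-sided exact permutation p = 0.1; limma adjusted p = 0.00505).

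Within Myh6 region 1 the site downstream of the start differed from the 3 upstream sites. The CpG at 102, in the first intron (chromosome 14, position 54966539), had 58.5%, 58.7% and 60.8% with negative siRNA and 37.4%, 40.5% and 46.3% with DNMT1 siRNA. Its pooled level fell by 17.5 points (limma adjusted p = 0.0159), and it is the least covered of the 27 sites, with 477 to 722 calls per sample. The CpG at -128 had the smallest difference, from 28.8%, 28.6% and 27.3% to 22.1%, 22.2% and 24.6%. The CpGs at -217 and -189 kept 82.2% and 89.2% of the negative siRNA level, and the latter is the highest share kept among the 25 sites whose replicates did not overlap. Pooled differences at -189 and -128 were -5.15 and -5.02 points, just past the 5 point threshold for a call. These 3 upstream sites passed the logistic regression and the quasi-binomial test but not limma, whose adjusted p-values were 0.055, 0.221 and 0.139 in order along the gene. They also lie in the first intron of a short Myh6 transcript that starts further upstream.

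Myh7 region 1, the distal Myh7 region, holds 9 of the 27 sites and all of them were lower with DNMT1 siRNA in every replicate. Its mean was 57.2%, 59.7% and 61.9% with negative siRNA and 40.8%, 48.6% and 45.9% with DNMT1 siRNA, so it fell by 14.5 points from 59.6% ± 2.35 to 45.1% ± 3.93 (SD, n = 3 each; two-sided exact permutation p = 0.1; limma adjusted p = 0.00403). The profile along the region was uneven but alike in all samples, with a low at -940 and highs at -857 and -834. At -857 (chromosome 14, position 54995483), where the difference was largest, levels were 81.4%, 81.0% and 81.7% with negative siRNA and 58.7%, 67.6% and 64.2% with DNMT1 siRNA. At -940 (position 54995566), where it was smallest, they were 26.4%, 28.3% and 29.8% against 15.0%, 19.4% and 20.3%. Pooled levels at these sites fell by 17.8 and by 9.8 points.

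Close neighbours in Myh7 region 1 could have distinct levels. The CpG at -852 lies 5 bp from the one at -857, yet it was 21.9 to 28.7 points lower than its neighbour in each of the 6 samples. The CpGs at -1024 and -1015, which are 9 bp apart, differed by at most 4.04 points in any sample. By limma 8 of the 9 sites were called, the exception being -1015 with an adjusted p of 0.0529, and the quasi-binomial test called 5. DNMT1 siRNA replicate 1 was the lowest sample at all 9 sites.

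Myh7 region 2, just upstream of the Myh7 start, had low methylation in both groups. Its mean was 8.47%, 7.8% and 10.0% with negative siRNA and 4.62%, 6.32% and 5.2% with DNMT1 siRNA. The mean fell by 3.38 points, from 8.76% ± 1.13 to 5.38% ± 0.866, and the groups did not overlap (SD, n = 3 each; two-sided exact permutation p = 0.1; limma adjusted p = 0.00714). In relation to the starting level it was among the largest, since 61.4% of the negative siRNA level was left, the second smallest share of the 26 regions. On limma's log2 scale, however, the fall of Myh7 region 2 ranked only 12 of the 26.

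Of its 4 covered sites the CpG at -116 had the largest difference, from 12.5%, 11.9% and 14.0% to 6.27%, 9.24% and 6.97%. Its pooled level fell by 5.3 points, and it was the only site of the region past the 5 point threshold (limma adjusted p = 0.0314). At -239 the levels were 4.33%, 4.06% and 5.04% against 2.66%, 3.42% and 2.93%, the smallest difference of the region. The CpG at -204, next to the MCAT element, had 9.15%, 9.25% and 12.4% with negative siRNA and 5.9%, 7.02% and 5.45% with DNMT1 siRNA. All 4 sites were lower in every DNMT1 siRNA replicate than in every negative siRNA replicate.

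Myh7b region 2, the distal Myh7b region, was lower at each of its 4 sites. The mean was 41.8%, 42.8% and 43.3% with negative siRNA and 27.0%, 32.1% and 30.5% with DNMT1 siRNA. It fell by 12.7 points, from 42.6% ± 0.741 to 29.9% ± 2.59 (SD, n = 3 each; two-sided exact permutation p = 0.1; limma adjusted p = 0.00219). The CpG at -345 (chromosome 2, position 155610867) had the largest pooled difference, with 63.5%, 59.7% and 62.0% against 43.4%, 48.9% and 48.6%. The smallest was at -264, with 25.1%, 29.7% and 27.4% against 15.7%, 21.6% and 17.3%. All 4 sites were called by limma, with adjusted p-values from 0.0159 to 0.045. The quasi-binomial test called 3 of them and not the one at -264, where its adjusted p was 0.0618.

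Myh7b region 1 differed from the other 5 regions. Its mean was 42.4%, 19.1% and 26.5% with negative siRNA and 10.1%, 30.3% and 27.0% with DNMT1 siRNA, so that the groups overlapped and the difference of -6.86 points was within their spread (29.3% ± 11.9 against 22.5% ± 10.8, SD, n = 3 each; two-sided exact permutation p = 0.6; limma adjusted p = 0.395). On limma's log2 scale the 95% interval of the difference ran from -2.13 to 0.936. Without negative siRNA replicate 1 the difference was -0.319 points, and without DNMT1 siRNA replicate 1 it was -0.688 points.

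This spread came from the CpGs at 23 and 39, which lie in the first exon of Myh7b, in its 5′ untranslated part. At 23 (chromosome 2, position 155611235) the levels were 67.0%, 13.7% and 31.9% with negative siRNA and 0.7%, 43.1% and 39.1% with DNMT1 siRNA, although 3261 to 17179 calls stood behind each value. The highest value was a negative siRNA replicate and the lowest a DNMT1 siRNA replicate, but the other 2 DNMT1 siRNA values lay above the other 2 negative siRNA values. At 39, which is 16 bp further on, they were 57.4%, 41.1% and 45.3% against 28.5%, 46.2% and 40.8%. Negative siRNA replicate 1 was the highest and DNMT1 siRNA replicate 1 the lowest of the 6 samples at both sites. Both were called lower by the logistic regression on pooled counts but not by limma, with adjusted p-values of 0.47 and 0.282, and without negative siRNA replicate 1 the pooled difference at 23 was 5.11 points in the opposite direction and was called. A base read as T may be a converted cytosine or a T in the DNA, and the files do not tell these apart.

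The third site of the region, at -46, lies upstream of the start and was low in all samples. It had 2.69%, 2.44% and 2.21% with negative siRNA and 1.16%, 1.46% and 1.11% with DNMT1 siRNA. The groups did not overlap, and 50.9% of the negative siRNA level was left, the smallest share among the 27 sites. Its pooled difference of -1.3 points was under the threshold for a call (limma adjusted p = 0.0162). This CpG and the one at -390 in Myh7b region 2 share the surrounding 10 bases tgacaCGtgg, the longest such match among 231 pairs of sites in the printed stretches. Their levels nonetheless differed, with means of 2.44% and 37.9% with negative siRNA. At -390 the levels were 38.9%, 35.9% and 39.0% against 23.7%, 26.0% and 24.7%.

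**Figure D2:**
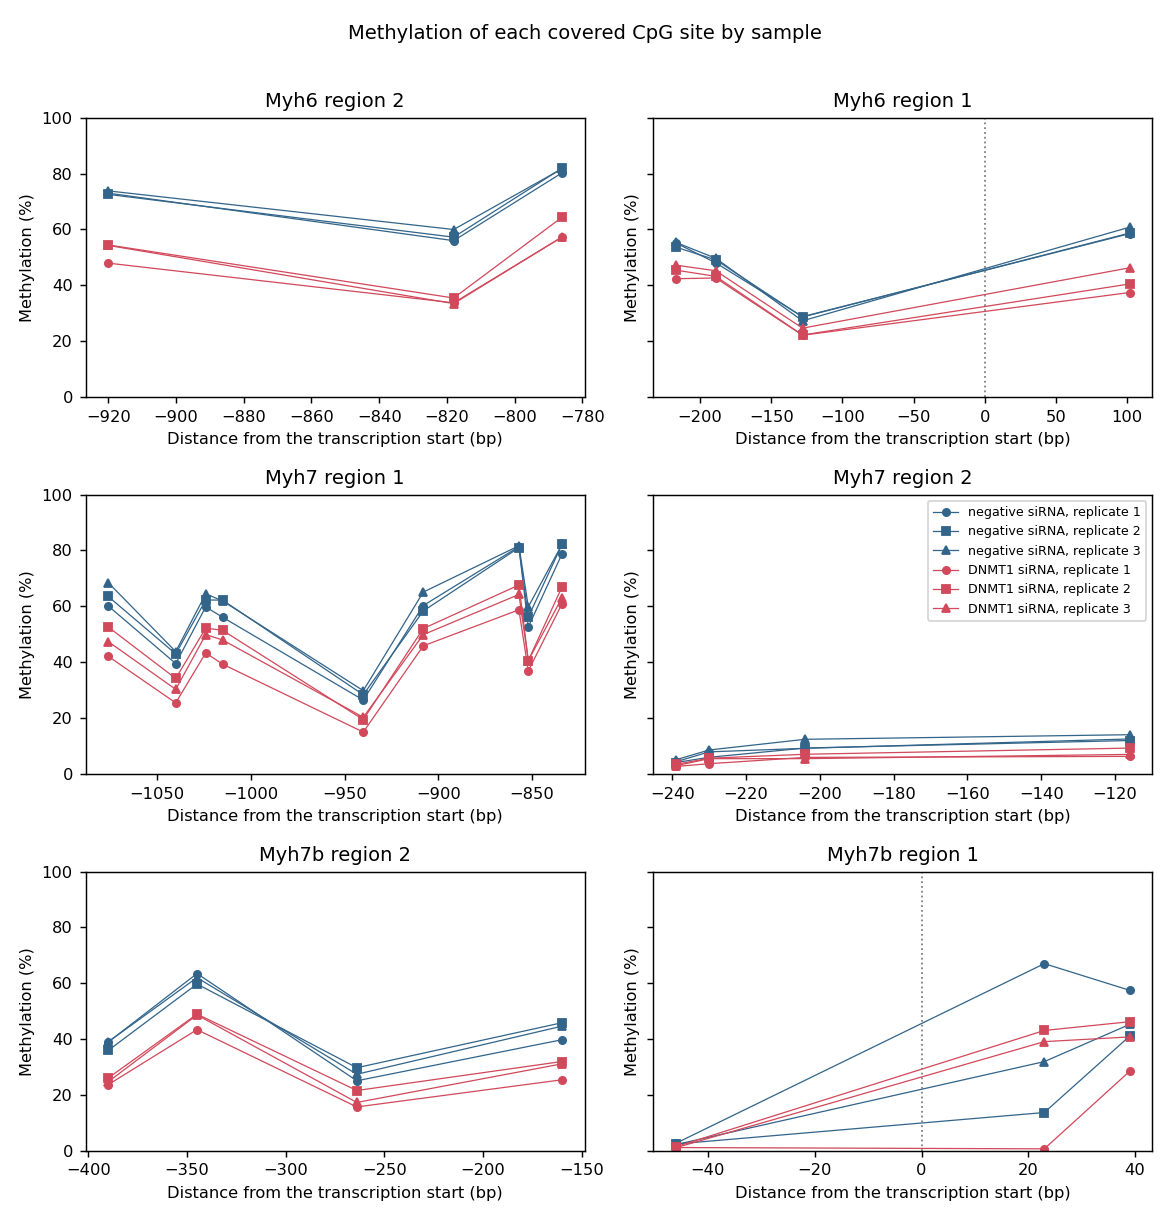
Methylation (percent) of each covered CpG site against its distance from the annotated transcription start (bp), 1 panel per region and 1 line per sample, with distal regions on the left and a dotted line at the start where a region spans it. In 5 regions the DNMT1 siRNA values lie below the negative siRNA values at each site, and the groups overlap at 23 and 39 bp in Myh7b region 1.

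Counted over the 27 sites, 23 were called lower and 0 higher by the logistic regression, at an adjusted p under 0.05 and a pooled difference over 5 points. Over all 314 sites this call was made for 37.6% as lower, and for 70.7% of the 167 sites above 5% with negative siRNA, a level that 25 of the 27 myosin sites exceed. Tests that take the spread between replicates into account called fewer. The quasi-binomial F test called 16 of 27 lower, against 19.4% of all sites and 36.5% of those above 5%. Limma called 17, against 23.2% and 43.7%. None of these tests called a site higher, and the group mean was lower with DNMT1 siRNA at all 27 sites. Replicates were separated, with DNMT1 siRNA lower, at 25 of the 27 sites, at 43.9% of all sites and at 65.9% of those above 5%. The 2 exceptions are the first exon sites of Myh7b. The logistic regression did not call 4 sites, at -239, -230 and -204 of Myh7 region 2 and at -46 of Myh7b region 1. These 4 had adjusted p-values under 0.05 in that test but pooled differences under 5 points. Those at -239 and -46 were below 5% with negative siRNA, so they could not have been called lower.

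The median pooled difference was -13.6 points over the 27 sites and -2.6 points over all 314. Over sites above 5% with negative siRNA, it was -13.9 points for the 25 myosin sites and -8.33 points for all 167. Regions do not weigh evenly in these backgrounds. Cdkn1C region 1 alone holds 54 of the 314 sites, and its mean changed by only -4.15 points. The median share of the negative siRNA level that was left was 71.4% over the 27 sites and 77.9% over all, and above 5% it was 73.4% and 76.9%. At the 24 sites outside Myh7b region 1 this share ran from 58.4% to 89.2%. Sites with a higher level with negative siRNA had larger falls in points, with a Pearson r of -0.81 across the 27 sites. This correlation is across sites of the same 6 libraries and describes them only, since the level itself enters the difference.

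**Figure D3:**
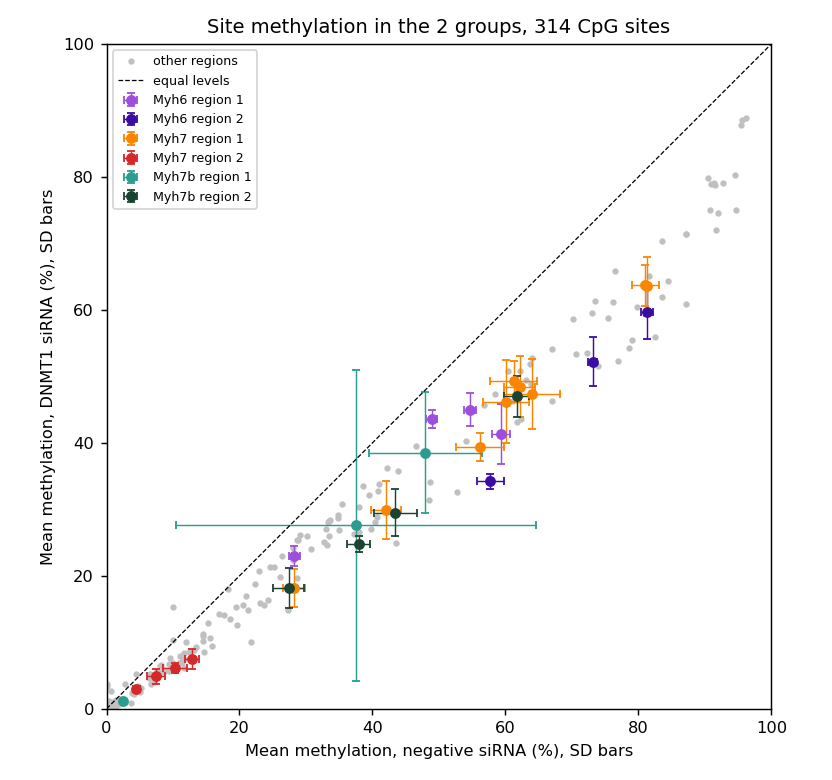
Mean methylation (percent) of each of 314 CpG sites with DNMT1 siRNA against negative siRNA, with the 27 myosin heavy chain sites in colour and SD bars over 3 replicates, and other regions in grey. All 27 lie below the dashed line of equal levels, and the widest bars belong to the first exon sites of Myh7b region 1.

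The falls of the 2 regions of a gene were compared within samples, as the mean of region 2 minus that of region 1. For Myh6 this difference was 22.1, 23.0 and 23.6 points with negative siRNA and 10.2, 13.6 and 7.52 points with DNMT1 siRNA. By group means the distal region thus lost 12.5 points more than the region at the start, and the groups did not overlap. The two-sided exact permutation p was 0.1, the smallest possible, and the adjusted p was 0.15 over 3 genes. For Myh7 the difference was -48.8, -51.9 and -51.9 points against -36.2, -42.2 and -40.7 points. By group means the distal region lost 11.1 points more than the one near the start (exact permutation p = 0.1, adjusted p = 0.15). Myh7 region 2 had only 8.76% with negative siRNA and could not have fallen by the 14.5 points of region 1. The test in points therefore cannot decide which Myh7 region responded more. For Myh7b the values overlapped, at -0.572, 23.7 and 16.8 against 16.9, 1.88 and 3.46 points (exact permutation p = 0.7; adjusted p = 0.7).

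The separation of the groups in this contrast was lost on another scale for Myh7 and kept for Myh6. On the log2 scale of the mean level over its complement, a scale added after the values in points were seen, the change in Myh6 was 0.78 lower in region 2 than in region 1 (-0.78, exact permutation p = 0.1; adjusted p = 0.3 over 3 genes), and the groups remained apart. For Myh7 the corresponding value was 0.09 and the groups overlapped (exact permutation p = 0.5). In shares, 68.8% of the negative siRNA level was left in Myh6 region 2 and 80.0% in Myh6 region 1, against 75.7% in Myh7 region 1 and 61.4% in Myh7 region 2. In Myh7b region 2 it was 70.1% and in Myh7b region 1 it was 76.6%.

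The troponin genes Tnnt2, Tnni3 and Tnnc1, whose products form the calcium switch of the thin filament, were the other sarcomere genes among the targets and had 44 covered sites in 6 regions. The logistic regression called 40 of them lower and 0 higher, and limma called 34 lower and 0 higher. The median pooled difference was -13.0 points and the median share left was 78.8%. Averaged over its 6 regions, the troponin group had a level of 64.9% ± 1.42 with negative siRNA and 51.8% ± 2.81 with DNMT1 siRNA (SD, n = 3 each), and the myosin group 43.1% ± 1.7 and 31.6% ± 3.64. Taken as myosin minus troponin in each sample, the difference changed by 1.55 points, within the overlap of the replicates (exact permutation p = 0.5), and it was 0.371 points without negative siRNA replicate 2. Without negative siRNA replicate 1 it was 3.05 points and the groups no longer overlapped (exact permutation p = 0.2).

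**Figure D4:**
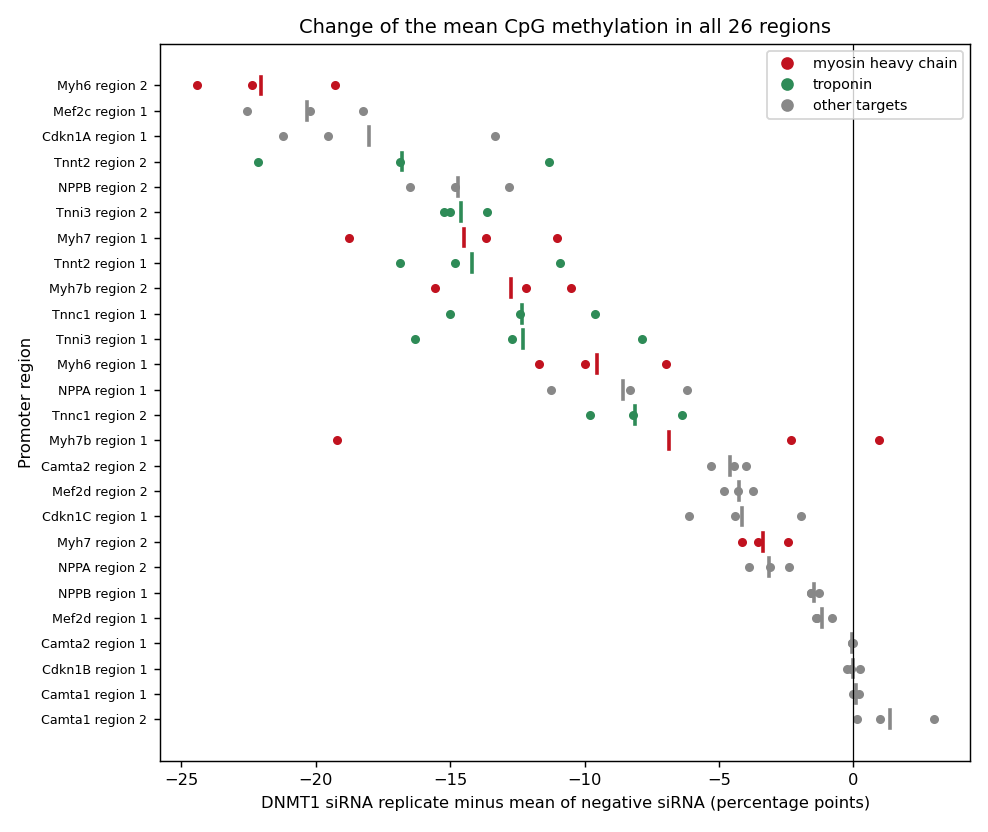
Change of the mean CpG methylation (percentage points) in each of 26 regions, shown as each DNMT1 siRNA replicate minus the mean of negative siRNA (points) and their mean (bars), with myosin heavy chain regions in red and troponin regions in green. Myh6 region 2 is at the top with -22.0 points, and Myh7b region 1 has the widest scatter of the myosin regions.

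By the levels of all 6 samples, Myh7 region 2 was most like region 2 of Nppa, the gene of atrial natriuretic peptide, with a root mean square difference of 0.866 points, followed by region 1 of Nppb at 3.65 points. Myh7 region 1 was closest to Tnnt2 region 1 at 3.15 points and to Tnni3 region 1 at 3.98 points. Myh7b region 2 was closest to Tnnc1 region 2 at 2.42 points and to Nppa region 1 at 4.4 points. Myh6 region 1 was nearest to Nppa region 1 at 5.2 points and to Tnni3 region 1 at 6.42 points, and Myh6 region 2 to Tnni3 region 2 at 5.5 points and to Cdkn1A region 1 at 9.47 points. Myh7b region 1 had no close match, with 9.77 points to Cdkn1C region 1 and 13.5 points to Tnnc1 region 2.

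Calls read as C outside CpG, a measure of incomplete bisulfite conversion, made up 0.137% to 0.321% of non-CpG calls in the 6 regions. These shares, taken over all calls, stand beside pooled differences of at least 5.02 points in size at called sites. They were higher with DNMT1 siRNA in every replicate of Myh6 region 1 (0.15% ± 0.0131 against 0.194% ± 0.0173, SD, n = 3 each) and of Myh6 region 2 (0.175% ± 0.0048 against 0.221% ± 0.0301), with an exact permutation p of 0.1 for each. As an unweighted mean over cytosines the change turned to -0.199 and -0.728 points in these regions. In the other 4 regions the groups overlapped (exact permutation p from 0.2 to 0.8). With levels corrected for this share, the same number of sites, 23, was called lower.

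The samples were not alike within a group. DNMT1 siRNA replicate 1 was the lowest of the 6 samples at 24 of the 27 sites and at 148 of all 314, and it also had the fewest calls in total. Negative siRNA replicate 3 was the highest at 18 of the 27. Without DNMT1 siRNA replicate 1 the logistic regression called 20 of the 27 sites and 106 of all 314 lower, against 23 and 118 with it, and limma still called the same number of regions, 5 of 6. The part of depth in these orders was not tested.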

How the data were processed

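Bisulfite-converted DNA of 6 samples was amplified at 2 promoter regions of each of 15 genes, tagmented and sequenced in a single MiSeq run. Tagmented PCR products carried no molecular identifiers, so p-values of the logistic regression on calls cover counting error only. Per the submitters' processing notes and the methods of the study, the authors used FastQC and Bismark with Bowtie2, against a reference of the amplicon sequences converted in silico. Notes of the submitters name mm10, and program versions are not given in the sources used here. For every listed cytosine, the deposited files hold the coverage, a count of calls, and how many percent of these were C or T. The authors kept replicates separate. Methylated counts, recovered from percent and coverage, were whole to within 4.04e-06.

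Regions were placed on GRCm38.p6 by matching their cytosine positions and contexts within 20000 bp of the target genes, and all of the 6 regions matched at 100% of listed cytosines. The coverage minimum for a CpG site was 10 calls in each sample. Following the thresholds of the study, sites were tested by logistic regression of counts with no overdispersion term, with Benjamini-Hochberg adjustment over 314 sites, with a call requiring adjusted p below 0.05 and over 5 points of pooled difference. The package named in the study is not installed here. Beside it stood a quasi-binomial F test and limma on log2 of methylated plus 1 over unmethylated plus 1 counts. Region means, unweighted over sites, were tested between groups by exact permutation (two-sided, 20 relabellings) and by limma over 26 regions. Tests were tried on simulated counts.

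The genes, the comparison list of troponins, the motifs and the tests were chosen with earlier results of these data known. Any covered site could be named, and in each region the sites with the largest and the smallest pooled difference were given with all values. Alternatives were other coverage minimums, difference thresholds and weightings, thinning to 100 calls, correction for non-CpG calls, the replicate block and leaving out each replicate. Alternatives on the log2 scale between regions, those without the CpG at 23 in Myh7b region 1 and the myosin group without that region were chosen after seeing the data. The sequence of Myh6 region 2 is not reported here, and RNA data were not analysed here. Python 3.11.15 (pandas 2.3.3, numpy 2.4.6, scipy 1.17.1, matplotlib 3.10.9) and limma 3.58.1 in R 4.3.3 were used.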

Additional observations from a re-analysis of the deposited data

How the results depend on the processing

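Of the 27 sites, the logistic regression called 23 lower with and without the replicate block, and limma called 17 without the replicate block and 7 with it (73 and 43 of all 314). A 10 point threshold gave 17, and thinning to 100 calls 18. Same-numbered samples of the groups did not deviate together (r of -0.374, -0.0792 and 0.0127 over 167 sites above 5%), no sample correlated best with its own number, and the numbers are treated as shared labels and not as pairs. At the level of regions the replicate block left all 5 limma calls in place. Leaving out single replicates gave 20 to 23 sites called lower and 0 to 1 called higher, the latter being the CpG at 23 in Myh7b region 1, whose pooled difference ran from -31.9 to 5.11 points. The 5 called regions kept their direction in every alternative run on region means, and limma called 5 regions in each of the 10 alternatives it was run in. Over leave-one-out fits the difference ran from -23.4 to -20.8 points in Myh6 region 2 and from -12.0 to -0.319 in Myh7b region 1. Drawn down to 100 calls a site, the share left in Myh6 region 1 was 87.1% and its site at -189 was 1.0 point higher with DNMT1 siRNA, a depth at which a difference of this size is within counting error.

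The change in non-CpG share depended on weighting. As an unweighted mean over cytosines it was -0.199, -0.728, -1.06, -0.442 and 1.06 points in Myh6 region 1, Myh6 region 2, Myh7 region 1, Myh7b region 1 and Myh7b region 2, each opposite in sign to the share over all calls, and the cause was not tested. Without single replicates it ran from -0.00549 to 0.00163 points in Myh7 region 2, from -0.0142 to 0.0213 in Myh7b region 1 and from -0.00603 to 0.00142 in Myh7b region 2. Without the CpG at 23 the difference of Myh7b region 1 was -5.32 points, with overlapping replicates (exact permutation p = 0.3).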

Other observations

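The CpGs at -239 and -230 of Myh7 region 2 share the 9 bases ggtCGtggt and lie 9 bp apart. They had close levels, with means of 4.48% and 7.46% with negative siRNA, and 67.1% and 65.6% of these were left with DNMT1 siRNA. The site at -230 was the higher of the pair in each of the 6 samples, with a difference (-239 minus -230) of -3.55 to -0.973 points.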
